A study of Mus musculus with 24 samples.

Results

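The proteins of the mitochondrial ribosome were followed as mRNAs in mouse left ventricles after pressure overload. All genes of the deposited read count table whose symbol starts with Mrpl or Mrps followed by a digit were taken, which gave 77 genes of 24015. All 77 passed the filter on low counts that left 13816 genes for testing, and the smallest count of any of them in any library was 92. RNA-seq was carried out on left ventricles taken 2, 4, 7 or 21 days after TAC (transverse aortic constriction, a banding of the aorta that loads the left ventricle) or after a sham operation. Each of the 8 groups held 3 libraries, 24 in all. The labels give the tissue, the operation and the day, and give no strain, sex, age or genotype. They do not say that the 3 libraries of a group came from 3 animals, so p-values measure the spread between these libraries, which may be technical.

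Mitochondrial ribosomes translate the few proteins that mitochondrial DNA encodes, all of them membrane subunits of oxidative phosphorylation, the respiratory chain and ATP synthase that supply the beating heart with ATP. Their RNAs come from mitochondrial DNA, but every one of their proteins is encoded in the nucleus, made on cytosolic ribosomes and imported. The large subunit forms the peptide bond and the small subunit reads the codon. Some of the proteins have counterparts in bacterial ribosomes, and others were added in the evolution of mitochondria.

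By their symbols and known positions, 50 of the 77 genes encode large subunit proteins and 26 small subunit proteins. Mrps18a and Mrps30 carry a small subunit name but sit in the large subunit, and were counted there. Mrps36 matches the naming rule, although its protein is known as a component of the 2-oxoglutarate dehydrogenase complex of the tricarboxylic acid cycle, so it was kept in the 77 and in neither subunit. Another 6 measured mitoribosomal proteins with other names (such as Dap3 and Ptcd3) fall outside the rule and were kept as a separate list.

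The promoters of 6 members are shown, because 5 of them (Mrpl14, Mrpl39, Mrpl10, Mrpl36 and Mrps26) had lower mRNA at both day 4 and day 7, and 1 (Mrpl52) had higher mRNA at day 2, in the tests given further on. Each sequence is the 150 bases before the annotated start, read 5′ to 3′ on the gene's strand, from RefSeq on GRCm38.p6. Capitals mark short motifs known from promoters of nuclear genes for mitochondria, searched on both strands: CCGGAAG for the ETS family with GABP, GCGCATGC for the core bound by NRF1, AAGATGGCG for YY1, CACGTG for E-box factors such as MYC, AAGGTCA for the estrogen-related receptors and TATAAA for the TATA box.
Mrpl14: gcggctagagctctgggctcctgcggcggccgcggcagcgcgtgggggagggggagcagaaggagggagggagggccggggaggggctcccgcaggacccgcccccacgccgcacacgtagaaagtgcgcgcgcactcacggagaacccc
Mrpl39: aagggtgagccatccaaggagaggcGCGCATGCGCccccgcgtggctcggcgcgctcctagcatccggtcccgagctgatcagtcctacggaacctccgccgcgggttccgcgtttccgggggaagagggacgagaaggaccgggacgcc
Mrpl10: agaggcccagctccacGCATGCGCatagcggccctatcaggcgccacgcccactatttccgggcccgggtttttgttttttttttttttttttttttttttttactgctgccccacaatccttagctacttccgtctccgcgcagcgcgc
Mrpl36: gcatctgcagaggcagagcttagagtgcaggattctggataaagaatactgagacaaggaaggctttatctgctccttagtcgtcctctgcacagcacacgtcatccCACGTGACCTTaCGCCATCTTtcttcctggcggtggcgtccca
Mrps26: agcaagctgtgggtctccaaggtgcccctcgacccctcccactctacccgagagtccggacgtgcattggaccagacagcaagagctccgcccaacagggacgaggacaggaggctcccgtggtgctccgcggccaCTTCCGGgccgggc
Mrpl52: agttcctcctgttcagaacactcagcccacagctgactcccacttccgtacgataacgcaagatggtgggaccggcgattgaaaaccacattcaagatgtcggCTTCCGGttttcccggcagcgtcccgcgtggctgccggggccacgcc
The windows lie at chr17:45686199-45686348 (plus strand) for Mrpl14, chr16:84735245-84735394 (minus strand) for Mrpl39, chr11:97041432-97041581 (plus strand) for Mrpl10, chr13:73330859-73331008 (plus strand) for Mrpl36, chr2:130563607-130563756 (plus strand) for Mrps26 and chr14:54426759-54426908 (plus strand) for Mrpl52.

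None of the 6 motifs is spelled in the Mrpl14 window. Mrpl39 and Mrpl10 hold the NRF1 core, and in Mrpl39 it is read on both strands, overlapping itself. In Mrpl36 an E-box and an estrogen-related receptor motif overlap, and a YY1 motif follows. Mrps26 and Mrpl52 hold the ETS motif 14 and 47 bases before the start.

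Promoter entries were found for 68 of the 77 genes, and the motifs were counted over 300 bases (250 before to 50 after the start). The ETS motif was in 25 of the 68 (36.8%), against 9.93% of 27025 genes with an entry and 18.8% of the 10293 of these that were tested here. The NRF1 core was in 8 (11.8%, against 3.05% of all and 5.75% of tested genes) and the YY1 motif in 8 (11.8%, against 1.64% and 3.33%). Together, at least 1 of these 3 was spelled in 35 of the 68 promoters (51.5%). This joint share was not computed for other genes, so it has no background here. The E-box was in 5 (7.35%, against 8.09% of all and 11.5% of tested genes), the estrogen-related receptor motif in 4 (5.88%, against 5.38% and 3.92%) and the TATA box in 5 (7.35%, against 15.7% and 9.08%). Of the 35 matched members that were lower on average over the days, 7 held the ETS motif, and of the 33 others 18 did. The NRF1 core and the YY1 motif were each in 4 and 4, the E-box and the TATA box each in 3 and 2, and the estrogen-related receptor motif in 2 and 2. None of these splits was tested. A match of letters describes the sequence and does not show a bound site. Mrpl13, Mrpl15, Mrpl19, Mrpl38, Mrpl4, Mrpl54, Mrps28, Mrps34 and Mrps35 had no entry.

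Total counts ranged from 10.7 to 17.6 M per library. The 77 genes took 0.253% to 0.379% of a library's counts (median 0.343%). Levels are given as CPM, a gene's counts per M (mega) counts of the library, after scaling by the trimmed mean of M-values. Among genes that could change with cell makeup, those of 9 fibroblast and matrix markers summed to 1449 to 1993 CPM in sham libraries and to 1462 to 10590 CPM in TAC libraries. Those of 9 cardiomyocyte markers (Myh6, Tnnt2, Ryr2 and others) summed to 185500 to 208200 CPM in sham and to 128400 to 201000 CPM in TAC libraries. Other markers moved with TAC too: of 12 macrophage and monocyte markers 4, 11, 10 and 0 were higher at days 2, 4, 7 and 21, and of 8 markers of dividing cells 7, 8, 8 and 0. Of 8 endothelial markers, 3 were lower at day 2 and 3 at day 4, and 2 were higher at day 7. Their sum was 1433 to 1550 CPM in sham and 1059 to 1277 CPM in TAC at day 2. Of 6 pericyte and smooth muscle markers, 1, 3, 1 and 0 were higher at the 4 days. Over all genes tested, 3.73%, 14.4%, 13.1% and 0.622% were called higher at these days, and 0.854% and 10.1% lower at days 2 and 4. The 1 of 6 at day 7 is near that day's share. The haemoglobin gene Hba-a1 was at 0 in every library, and outside the blood list no list had a marker at 0 in all of them. In bulk tissue, fewer cells of a type and less RNA per cell cannot be told apart.

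In sham hearts the members differed widely in level on a per-length scale. By mean RPKM (reads scaled to gene length and library size) over the 12 sham libraries, Mrpl42 was highest at 513 ± 36.9 (SD), followed by Mrps21 at 429 ± 40.3 and Mrpl34 at 237 ± 30.7. Lowest were Mrpl17 at 4.85 ± 0.313, Mrpl57 at 5.18 ± 0.532 and Mrpl19 at 7.39 ± 0.609. Neighbours in this order were not all apart: sham libraries of Mrps21 reached 492 RPKM where those of Mrpl42 started at 457, and those of Mrpl17 reached 5.36 where those of Mrpl57 started at 4.54. The order rests on lengths the authors used and did not state. The length implied by CPM over RPKM was under 0.8 times the shortest annotated transcript for 40 of the 77 genes (GENCODE vM21), Mrps21 among them. For Mrpl17 it was 7892 bases, where its longest annotated transcript has 7300. On CPM, which is not per length, Mrpl42 was also highest among the 77, at a sham mean of 263, but Mrps12 was lowest at 9.42, and Mrpl17 and Mrpl19 both stood at 39.1.

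At day 2, 1 member was higher in TAC and none was lower. With edgeR's quasi-likelihood test and Benjamini-Hochberg adjustment over all 13816 genes, Mrpl52, a protein added to the mitochondrial large subunit, passed at an adjusted p under 0.05, where 3.73% of all genes were called higher and 0.854% lower. At an unadjusted p under 0.05, 2 members were higher and 5 lower. For unadjusted counts, here and below, no share of all genes is given, and the adjusted shares are no background for them. The 5 became 20 without TAC day 2 replicate 1, 14 without TAC day 7 replicate 1, 1 without TAC day 2 replicate 2 or 3, and 0, 3 and 8 without sham day 2 replicates 1, 2 and 3. Without replicate 2 of TAC at day 7 or day 21 it was 8. The median log2 fold change of TAC over sham over the 77 was -0.145 (all genes tested, -0.00225), and 59 of the 77 lay below 0. It was -0.234 without TAC day 2 replicate 1, -0.077 without replicate 2, -0.0959 without replicate 3 and -0.0966 without sham day 2 replicate 1. All 3 TAC libraries were below all 3 sham libraries for 14 members and above them for 3, where each of these patterns held for 11.2% of all genes.

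Mrpl52 stood at 35.2, 36.9 and 33 CPM in the sham libraries of day 2 and at 48.4, 40.2 and 51.8 CPM in the TAC libraries. The groups did not overlap. Its log2 fold change was 0.42 ± 0.0953 (SE, n = 3 against 3, adjusted p = 0.0178 with edgeR). Without TAC day 2 replicate 3 it was 0.34 and no longer passed, and it also lost the call without any 1 of the 3 sham libraries of that day (0.38 to 0.46).

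No other member passed at day 2, and 18 of the 77 lay above 0. Mrps18b, 1 of 3 paralogs of the bacterial protein S18, had 19.2, 20.6 and 20.2 CPM in sham and 26.9, 20.3 and 28.5 CPM in TAC (0.33 ± 0.157, adjusted p = 0.239 with edgeR). Mrpl10 and Mrpl12, which form the base and the mobile arms of the stalk that receives translation factors, differed by -0.12 ± 0.1 and -0.05 ± 0.154. Mrpl45, which anchors the ribosome at the inner membrane near the exit tunnel, differed by -0.20 ± 0.18. The 3 TAC libraries of day 2 did not go together: the median member lay 0.0577 above the sham mean on the log2 scale in replicate 1, and at -0.262 and -0.191 in replicates 2 and 3. Fibroblast and matrix markers summed to 1791 CPM in replicate 1 and to 3410 and 3480 CPM in the other 2. Their part in the result was not tested.

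**Figure D1:**
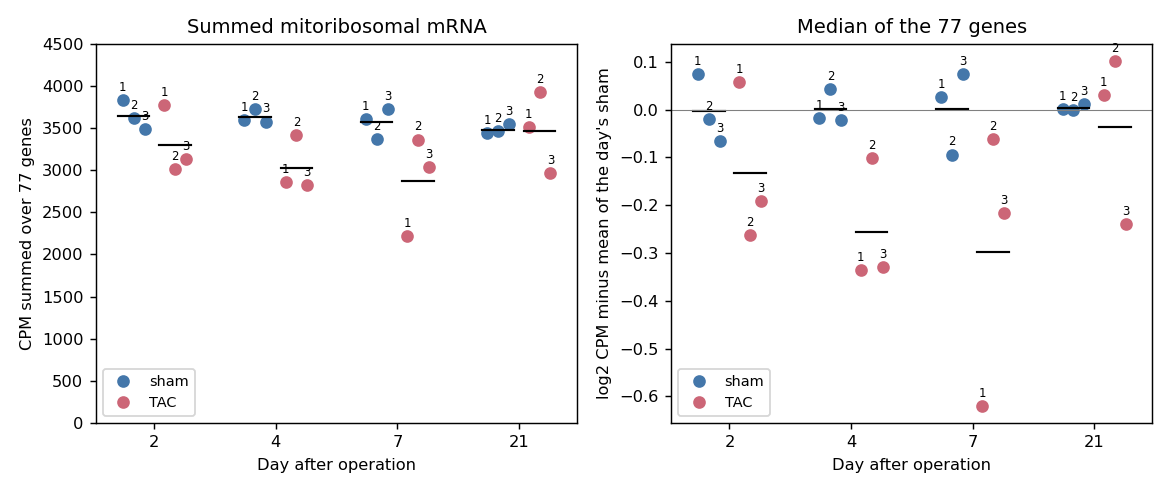
Level of mitoribosomal mRNA in each of the 24 libraries by day after the operation, as CPM summed over the 77 genes (left) and as the median over the 77 genes of log2 CPM minus the mean of the day's sham libraries (right). Points are libraries with their replicate number, black lines are means of 3, and the lowest point is TAC day 7 replicate 1 at 2217 CPM and -0.619.

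At day 4, 11 members were lower in TAC and none was higher. The 11 are 14.3% of the 77, near the 10.1% of all genes called lower, while 14.4% of all genes were called higher. They were Mrpl14, Mrpl9, Mrpl38, Mrpl39, Mrps26, Mrps28, Mrpl10, Mrps35, Mrpl36, Mrpl28 and Mrpl3, of which 8 belong to the large and 3 to the small subunit. The median over all 77 was -0.254 (all genes, -0.0115), with a range from -0.66 to 0.12. Below 0 lay 72 of 77. TAC libraries were all below sham for 38 members (49.4%, against 19.6% of all genes) and all above for 1 (against 21.5%). At an unadjusted p under 0.05, 32 members were lower and 0 higher, without a share of all genes at that threshold.

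Mrpl14 had the largest difference. Its protein is the counterpart of bacterial L14 and lies at the face that meets the small subunit. It stood at 41.1, 41.3 and 36.8 CPM in sham and at 23.7, 30.7 and 21.3 CPM in TAC. The groups did not overlap, and the log2 fold change was -0.66 ± 0.187 (SE, n = 3 against 3, edgeR adjusted p = 0.015).

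Mrpl9, the counterpart of L9, stood at 27.3, 32.1 and 29.5 CPM in sham and at 23, 22.3 and 20 CPM in TAC (-0.45 ± 0.137). Mrpl38, a mitochondrial addition to the central protuberance of the large subunit, stood at 53.3, 56.9 and 53 CPM against 39.4, 44.2 and 40.6 CPM (-0.39 ± 0.124). Mrpl39, another protein without a bacterial counterpart, stood at 80.5, 83.3 and 76.4 CPM against 61.9, 64.8 and 49.7 CPM (-0.45 ± 0.15). In all 3 of these large subunit genes each TAC library was below each sham library.

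In the small subunit, Mrps26 fell by 0.39 on the log2 scale, from 53.5, 51.1 and 50.8 CPM to 41.9, 41.1 and 35.7 CPM. Mrps28 had 33, 41.3 and 35.5 CPM in sham and 22.1, 28 and 27.1 CPM in TAC (-0.51 ± 0.175). Mrps35 had 58.3, 53.1 and 54.5 CPM in sham and 38.9, 45.6 and 31.6 CPM in TAC (-0.52 ± 0.182). Again no TAC library reached a sham library. The edgeR adjusted p-values of these small subunit genes lay between 0.0361 and 0.0426.

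Of the stalk, Mrpl10 fell and Mrpl12 did not pass. Mrpl10 stood at 44.1, 45 and 41 CPM in sham and at 35.8, 36.4 and 34.4 CPM in TAC (-0.29 ± 0.101, edgeR adjusted p = 0.0416), and Mrpl12 differed by -0.14 ± 0.154 with overlapping groups. Mrps12, the counterpart of the decoding protein S12, differed by -0.12 ± 0.185, and Mrpl45 by -0.17 ± 0.182. Mrpl37 and Mrps30 had all TAC libraries below sham, at -0.33 ± 0.136 and -0.31 ± 0.129, without passing (edgeR adjusted p = 0.0835 and 0.0802). Mrpl41 was similar, at -0.34 ± 0.176. Mrps6 differed by -0.43 ± 0.167 with overlapping groups, and its annotated exons share 159 bases with the solute carrier gene Slc5a3 on the same strand.

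The 3 paralogs of S18 did not pass at day 4: Mrps18a differed by -0.15 ± 0.152, Mrps18b by -0.05 ± 0.16 and Mrps18c by -0.12 ± 0.156. Mrps36 of the 2-oxoglutarate dehydrogenase complex differed by -0.31 ± 0.167. Of the genes at the ends of the order by RPKM, Mrpl42 had -0.50 ± 0.198, Mrps21 -0.41 ± 0.232 and Mrpl34 -0.20 ± 0.159, and Mrpl19, Mrpl57 and Mrpl17 lay between -0.06 and -0.12. None of these 6 passed.

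The count of day 4 rested on single libraries. It was 0 without sham day 4 replicate 2 or without TAC day 4 replicate 3, 1 without TAC day 4 replicate 1, 2 without sham day 4 replicate 3, 6 without sham day 4 replicate 1, and 24 without TAC day 4 replicate 2. Leaving out a library of another day, which changes the shared estimate of spread, gave 6 (sham day 2 replicate 2, sham day 7 replicate 1), 7 (sham day 7 replicate 3, TAC day 7 replicate 3, sham day 21 replicates 1 and 3), 17 (TAC day 21 replicate 3) and 19 (TAC day 7 replicate 1). Calls over all genes moved as well. In the fits without a library of another day, 8.97% to 9.19% of all genes were called lower where 6 or 7 members were. The shares were 11.1% where 17 members were and 10.9% where 19 were. Without sham day 4 replicates 1, 2 and 3, 7.1%, 5.71% and 6.05% of all genes were called lower at day 4. Without TAC day 4 replicates 1, 2 and 3 the shares were 7.07%, 11.9% and 2.45%. The median log2 fold change stayed between -0.211 and -0.351 in these fits, and 69 to 74 members lay below 0. The median member was at -0.336, -0.101 and -0.33 in TAC replicates 1, 2 and 3. Fibroblast and matrix markers summed to 9889, 4848 and 10280 CPM in the same order, and 6 of those 9 markers were called higher at day 4. Their part in the result was not tested.

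**Figure D2:**
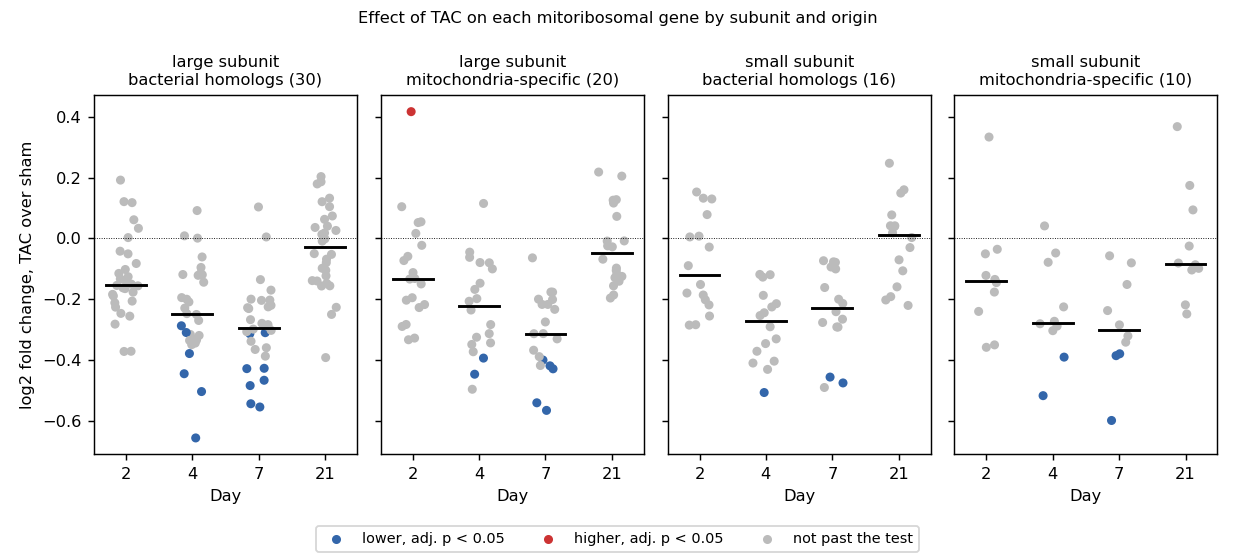
Log2 fold change of TAC over sham for each member at days 2, 4, 7 and 21, by subunit and by presence of a bacterial counterpart (number of genes in brackets). Mrps18a and Mrps18b, paralogs of S18, stand with the genes without one. Points are genes, coloured where the edgeR adjusted p was under 0.05, and black lines are medians, which lie below 0 in all 4 sets at days 2, 4 and 7.

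At day 7, 19 members were lower and none was higher. That is 24.7% of the 77, where 10.0% of all genes were called lower and 13.1% higher. The 19 were Mrpl36, Mrps15, Mrpl22, Mrpl39, Mrpl47, Mrpl1, Mrpl49, Mrps30, Mrps35, Mrpl50, Mrps25, Mrpl10, Mrps24, Mrpl55, Mrpl16, Mrps26, Mrps36, Mrpl14 and Mrpl42. Of these, 13 encode large and 5 small subunit proteins, besides Mrps36. The median was -0.284 (all genes, 0.00322), and 75 of 77 lay below 0. It was -0.301 in the large and -0.253 in the small subunit. TAC libraries were all below sham for 29 members, against 19.4% of all genes, and above for 0, against 20.5%. At an unadjusted p under 0.05, 36 were lower and 0 higher, again without a share of all genes at that threshold.

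Mrpl36, a small zinc-binding protein of the large subunit, had the smallest p. It stood at 17.9, 17.6 and 19.1 CPM in sham and at 11.3, 14.9 and 14.5 CPM in TAC (-0.43 ± 0.111, SE, n = 3 against 3, edgeR adjusted p = 0.0105). Mrps15, which binds the small subunit's RNA, stood at 91.4, 88.3 and 90.2 CPM against 48.7, 75.4 and 70.1 CPM (-0.48 ± 0.124). The sham libraries of both genes lay close together and the first TAC library was lowest.

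Mrpl22, which lines the exit tunnel, stood at 18.9, 20.5 and 19.1 CPM in sham and at 12.2, 15.6 and 15.7 CPM in TAC (-0.43 ± 0.118). Mrpl39 stood at 78.2, 71.2 and 81.4 CPM against 40.7, 60.8 and 57.3 CPM (-0.54 ± 0.151). Mrpl47, the counterpart of L29 beside the tunnel exit, stood at 20.8, 20.3 and 20.9 CPM against 10.9, 17.2 and 14.3 CPM (-0.55 ± 0.155). Mrpl1, the protein of the L1 stalk on the side where used tRNA leaves, stood at 41.8, 44.2 and 36.6 CPM against 24.2, 31.3 and 32.2 CPM (-0.48 ± 0.136). In none of these 4 did a TAC library reach a sham library. Annotated exons of Mrpl47 share 452 bases with Actl6a and 158 with Ndufb5 on the opposite strand, and Mrpl36 shares 30 with Ndufs6. Mrps25, also among the 19, shares 3533 with Nr2c2, which is 58.2% of its exon bases. No source used here says whether the counting used strand.

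Among the members followed at every day, Mrpl10, Mrps30, Mrps36 and Mrpl42 passed at day 7. Mrpl10 had 44.2, 43.8 and 46.7 CPM in sham and 31.1, 43 and 34.7 CPM in TAC (-0.31 ± 0.101). Mrps30 had 28.3, 28.9 and 34.4 CPM against 19.6, 26.8 and 21.8 CPM (-0.43 ± 0.129). Mrps36 had 76.1, 74.3 and 77.1 CPM against 39.2, 62 and 61.3 CPM (-0.49 ± 0.168), and Mrpl42 had 257, 263 and 270 CPM against 122, 233 and 180 CPM (-0.57 ± 0.198). The first TAC library was again lowest in all 4 genes.

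Mrpl37 was just outside at -0.37 ± 0.136 (edgeR adjusted p = 0.0546). Mrps21 had -0.49 ± 0.233, Mrpl41 -0.33 ± 0.176, Mrpl45 -0.31 ± 0.183, Mrpl34 -0.29 ± 0.16 and Mrps18a -0.27 ± 0.152, with edgeR adjusted p-values from 0.129 to 0.215. Mrpl12, Mrps12, Mrps18b, Mrps18c and Mrps6 lay between -0.06 and -0.14, and Mrpl19, Mrpl57 and Mrpl17 between -0.17 and -0.20. None of these genes passed.

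The day 7 count turned on TAC replicate 1. Without it no member passed, 11 were lower at an unadjusted p under 0.05, the median was -0.115 and 65 of 77 still lay below 0, while 2.75% of all genes were called lower. Without TAC replicate 2 the count was 41, without TAC replicate 3 it was 11. Among the sham libraries of the day, it fell to 9 without replicate 1 or 2 and to 5 without replicate 3. Of all genes, 13.6% and 4.88% were called lower without TAC replicates 2 and 3. Without sham replicates 1, 2 and 3 of the day the shares were 5.95%, 5.94% and 4.33%. All 77 members were below the sham mean in TAC replicate 1, where the median member lay at -0.619, against 50 members and -0.0616 in replicate 2 and 68 members and -0.216 in replicate 3. TAC replicate 1 also held the lowest sum of cardiomyocyte markers of the 24 libraries (128400 CPM), the highest sum of fibroblast and matrix markers (10590 CPM, against 2122 and 4791 CPM in replicates 2 and 3) and 69.2 CPM of the atrial light chain Myl7 (0 and 7.5 CPM in the other 2). Of the 9 fibroblast and matrix markers, 7 were called higher at day 7. The part of these in the result was not tested.

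Of the 11 members lower at day 4 and the 19 at day 7, 6 were lower at both: Mrpl14, Mrpl39, Mrps26, Mrpl10, Mrps35 and Mrpl36. They make up 54.5% of the day 4 calls and 31.6% of the day 7 calls. Over all genes tested, 640 (4.63%) were lower at both days, which is 45.7% and 46.2% of the lower calls of day 4 and day 7. These days share no libraries, but their tests share 1 estimate of spread per gene from all 24 libraries. At day 7, Mrpl14 had 36.2, 32.7 and 37.8 CPM in sham and 18.4, 29.3 and 25.6 CPM in TAC (-0.54 ± 0.189), and Mrps35 had 55.1, 61.9 and 59.8 CPM against 24.7, 53.1 and 39.3 CPM (-0.60 ± 0.182). Mrps26 had 51.9, 47.4 and 45.4 CPM against 29.2, 44.7 and 37 CPM (-0.39 ± 0.133), with sham and TAC less than 1 CPM apart at their nearest. At day 4, Mrpl36 had 18.9, 17.3 and 19 CPM against 14, 15.7 and 14.8 CPM (-0.31 ± 0.11).

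**Figure D3:**
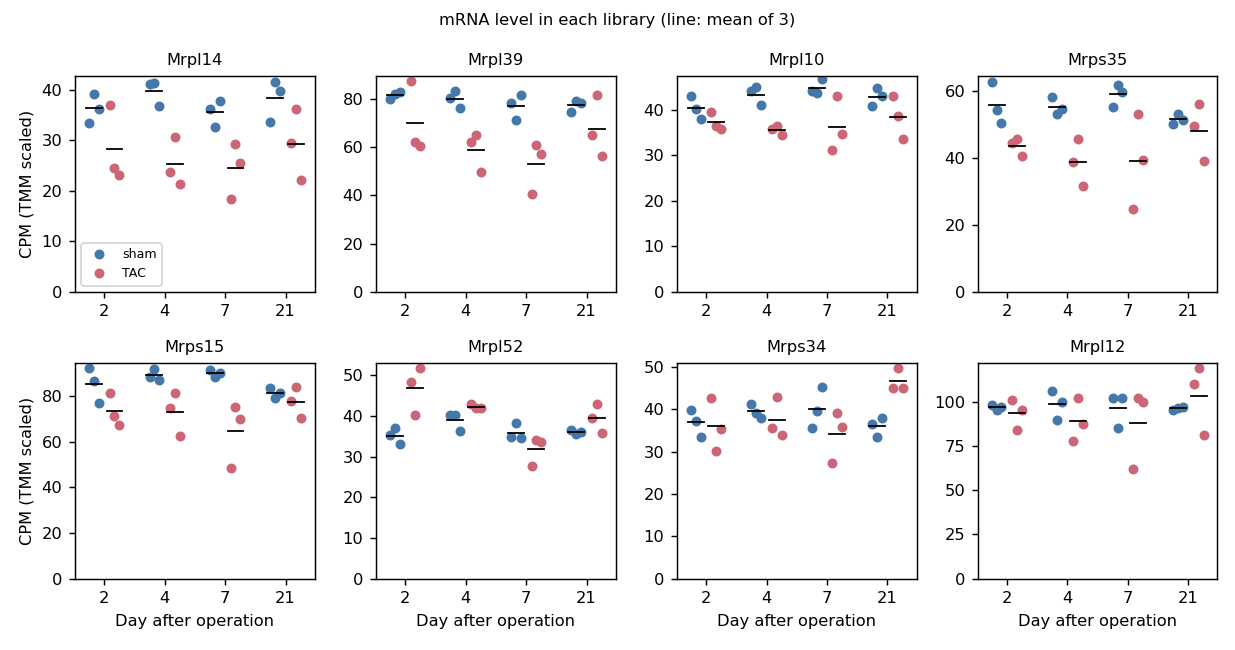
CPM of 8 members in each library by day (points: libraries, lines: means of 3, axes from 0). TAC points lie below sham points at days 4 and 7 for Mrpl14, Mrpl39, Mrpl10, Mrps35 and Mrps15, above them for Mrpl52 at day 2 and for Mrps34 at day 21, and overlap them at each day for Mrpl12.

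At day 21 no member passed in either direction. Of all genes, 0.622% were called higher and 0.470% lower. At an unadjusted p under 0.05, edgeR gave 1 member higher and 1 lower, and DESeq2 and voom also called none after adjustment. The median was -0.0299 (all genes, 0.0099), and 46 of 77 lay below 0. TAC libraries were all above sham for 5 members, where 11.9% of all genes were, and all below for 3, where 10.5% were.

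Mrps34, a mitochondrial addition to the small subunit, had the smallest p at day 21. It stood at 36.6, 33.4 and 38 CPM in sham and at 44.9, 49.8 and 44.9 CPM in TAC, so the groups did not overlap (0.37 ± 0.133, edgeR adjusted p = 0.156). Mrpl14 stood at 33.7, 41.6 and 39.7 CPM in sham and at 29.4, 36.2 and 22.1 CPM in TAC, with overlap (-0.39 ± 0.188, edgeR adjusted p = 0.286). Mrpl10, Mrps35 and Mrpl39 lay at -0.16, -0.10 and -0.20, and Mrpl12, Mrps12, Mrpl34 and Mrps21 at 0.10, 0.15, 0.19 and 0.25. Mrpl37, Mrps30, Mrpl41, Mrpl45, Mrpl42, Mrps36, Mrps6 and the S18 paralogs lay between -0.19 (Mrpl41) and 0.08 (Mrps6). The TAC libraries again differed among themselves, with the median member at 0.0303, 0.101 and -0.239 in replicates 1, 2 and 3. Fibroblast and matrix markers summed to 3322, 1462 and 4835 CPM in that order. Without replicate 3 the median over members was 0.0411, and without replicate 2 it was -0.131.

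Averaged over the 4 days with equal weight, a contrast that reuses the libraries of the daily ones, 40 members were lower and 1 was higher. The 40 are 51.9% of the 77, where 21.4% of all genes were called lower and 24.4% higher. The median was -0.185 (all genes, -0.00246), and 71 of 77 lay below 0. In the large subunit 28 of 50 were lower and in the small subunit 11 of 26, with medians of -0.189 and -0.172. The fortieth was Mrps36. By origin, 17 of 30 large subunit proteins with a bacterial counterpart were lower, 11 of 20 without one, 6 of 16 small subunit proteins with one and 5 of 10 without one. Of the paralogs of S18, Mrps18a and Mrps18b were counted as without a counterpart and Mrps18c as with one. None of these shares was tested against another.

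Mrpl14 led the average at -0.49 ± 0.0938 (SE, 12 TAC against 12 sham libraries, edgeR adjusted p = 0.00028). It was followed by Mrpl39 (-0.35 ± 0.075), Mrpl22 (-0.27 ± 0.0589), Mrps35 (-0.39 ± 0.0909), Mrpl10 (-0.22 ± 0.0504) and Mrps15 (-0.26 ± 0.0617), all with an edgeR adjusted p of at most 0.00167. Mrpl37, Mrps30, Mrpl41, Mrps36 and Mrpl42 were also among the 40. Mrpl12, Mrps12, Mrpl45, Mrps18a, Mrps18b, Mrps18c, Mrps6, Mrps21 and Mrpl34 were not, and Mrps18b lay at 0.04 ± 0.0797. Mrpl52 was the 1 called higher (0.12 ± 0.0481, edgeR adjusted p = 0.0454), a call that was lost in most of the fits with 1 library left out.

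Mrpl20 and Mrpl33, picked out after their values were seen, were the 2 members above 0 at all 4 days, with averages of 0.07 and 0.13. Neither passed. Of all genes tested, 24.3% were below 0 at no day. In the other direction, 37 members lay below 0 at all 4 days (23.8% of all genes did) and 29 at 3 days (18.3% of all genes did). The lowest effect fell on day 7 for 45 members, on day 4 for 23, on day 2 for 8 and on day 21 for 1, where the shares over all genes were 26.3%, 24%, 22.7% and 27%. Which day held the lowest effect rested on single libraries: day 7 held it for 14 members and day 4 for 45 without TAC day 7 replicate 1, and day 7 for 27 and day 4 for 46 without TAC day 4 replicate 2. The average count of 40 ranged from 31 to 50 when 1 library was left out. A set chosen after seeing the data left out the 4 libraries with over 30 CPM of Myl7. These were TAC day 7 replicate 1, sham day 2 replicates 2 and 3, and sham day 21 replicate 2. In that set, with 1 sham library at day 2, the median average effect over members was -0.169.

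Across members the average effect was weakly related to level in sham hearts: over the 77 genes, which share all 24 libraries, Pearson's r with log2 CPM was -0.262 and Spearman's rho -0.263, and with log2 RPKM -0.098 and -0.105. The ratio of large to small subunit mRNA, each summed in CPM, ranged from 2.37 to 2.56 over the 24 libraries.

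The effect of TAC was next compared between days. No member passed for any pair of days tested or for any difference among the 4 days. From day 2 to day 4, 0% of all genes passed, from day 4 to day 7 0.0507%, from day 7 to day 21 0.0651%, from day 2 to day 21 0.0145%, and for any difference 0.369%. At an unadjusted p under 0.05, edgeR gave 4, 1, 11, 4 and 3 members in that order, without shares of all genes at that threshold. From day 7 to day 21 the difference was above 0 in 74 of 77 members, with a median of 0.257 (all genes, -0.00559). Without TAC day 7 replicate 1 these were 61 members and 0.125, and 3 members rather than 11 had an unadjusted p under 0.05, a count that ranged from 3 to 28 with 1 library left out. Mrps34 had the smallest p there (0.61 ± 0.188, edgeR adjusted p = 0.23), followed by Mrps25 at 0.47 ± 0.174. Mrpl52 had the smallest p for any difference (edgeR adjusted p = 0.161): its TAC libraries were all above sham at days 2 and 4 and all below at day 7. From day 2 to day 4 the smallest p was that of Mrps6 (-0.56 ± 0.235), and from day 2 to day 21 that of Mrpl43 (0.41 ± 0.151).

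Among sham hearts no member passed for a difference between the days, where 0.680% of all genes did, and no member had an unadjusted p under 0.05. Mrps14 and Mrpl19 had the smallest, at 0.0713 and 0.176 with edgeR (adjusted 0.582 and 0.753). Summed over the 77 genes, sham libraries held 3375 to 3833 CPM and TAC libraries 2217 to 3926 CPM.

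Other nuclear genes of mitochondrial protein synthesis were also called lower at days 4 and 7. At days 2, 4, 7 and 21, members lower in TAC were 0, 3, 3 and 0 of 14 translation factors, 0, 6, 5 and 0 of 20 mitochondrial aminoacyl-tRNA synthetases and amidotransferase subunits, 0, 4, 6 and 0 of 27 assembly and rRNA modification factors, and 0, 2, 4 and 0 of 15 factors of mitochondrial DNA transcription and RNA processing. None of these genes was higher at any day. The mitoribosomal proteins outside the naming rule gave 0, 0, 1 and 0 of 6, the 1 being Ptcd3 at day 7 (-0.42 ± 0.142, edgeR adjusted p = 0.0366). The GTPase Mtg2, a factor of large subunit assembly, was lower at day 4 (-0.89 ± 0.141) and day 7 (-0.55 ± 0.139). Malsu1, the assembly factor that binds Mrpl14 protein, was lower at day 7 (-0.68 ± 0.166). Mtrf1l, a release factor, was lower at day 4 (-0.43 ± 0.115) and day 7 (-0.44 ± 0.116), and so was Lrpprc, which stabilises mitochondrial mRNAs (-0.37 ± 0.114 and -0.36 ± 0.114). The RNA polymerase of mitochondria, Polrmt, was lower at day 4 (-0.54 ± 0.129) and day 7 (-0.37 ± 0.129), and Gatc, a subunit of the amidotransferase for glutaminyl-tRNA, at day 7 (-0.69 ± 0.129). Averaged over the days, 7 translation factors, 13 of the synthetase list, 15 assembly factors and 7 transcription factors were lower. Beside these stand 10.1%, 10.0% and 21.4% of all genes called lower at day 4, at day 7 and on average. The shares of the transcription list (13.3%) and of the assembly list (14.8%) at day 4 were near that of all genes.

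The nuclear subunits of oxidative phosphorylation were lower in larger number. Apart from those of complex II, they work in complexes that also hold proteins made by the mitochondrial ribosome. Of 76 tested, 0, 44, 27 and 1 were lower at days 2, 4, 7 and 21 and none was higher. Of all genes, 0.854%, 10.1%, 10.0% and 0.470% were called lower at these days. Medians of the 76 were -0.205, -0.495, -0.422 and -0.106, against -0.145, -0.254, -0.284 and -0.0299 for the 77 members. The difference between the 2 lists was not tested. Per 1000 CPM of these subunits, members summed to 76.6 to 81.7 CPM in sham and 89.4 to 104 CPM in TAC libraries of day 4, to 80.8 to 82.5 and 87.6 to 101 CPM at day 7, and to 80.7 to 83.9 and 84.5 to 97.1 CPM at day 21. At these 3 days every TAC library had the higher ratio. At day 2 the ranges were 84.7 to 88.6 and 83.3 to 101 CPM and overlapped.

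**Figure D4:**
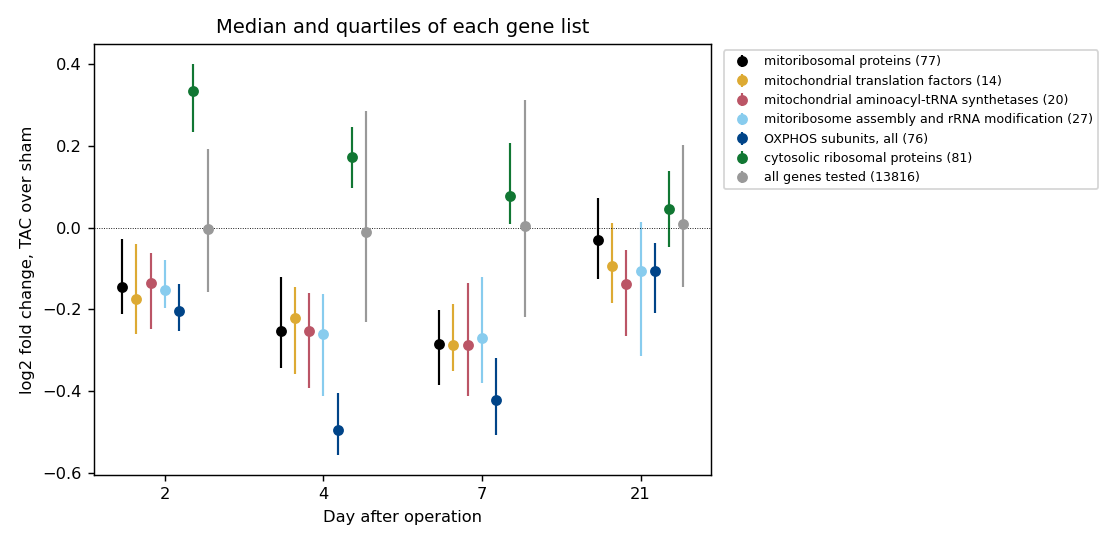
Median (point) and quartiles (bars) of the log2 fold change of TAC over sham in each gene list at each day, with the number of genes tested in brackets. Mitoribosomal proteins and the other mitochondrial lists lie below 0 at days 4 and 7, oxidative phosphorylation subunits lowest, and cytosolic ribosomal proteins lie above 0.

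Cytosolic ribosomal proteins, which build the ribosomes of the cytoplasm, were higher in TAC where they passed, with 1 exception. The list of 81 tested also holds genes named after a ribosomal protein, such as Rps19bp1 (a binding protein of Rps19) and Rpl7l1. Of the 81, 34, 12, 8 and 0 were higher at days 2, 4, 7 and 21, with medians of 0.336, 0.172, 0.0788 and 0.0448. Over all genes, 3.73% and 0.622% were called higher at days 2 and 21. At day 4 the 12 made up 14.8% of the list, near the 14.4% of all genes called higher. At day 7 the 8 made up 9.88%, below the 13.1% of all genes. The 1 lower at days 4 and 7 was Rpl3l, a muscle form of Rpl3 (-1.13 ± 0.276 and -1.13 ± 0.277). Per 100 CPM of cytosolic ribosomal proteins, mitoribosomal mRNA summed to 24.1 to 27.7 CPM in sham and 16.5 to 22.8 CPM in TAC at day 2, 23.6 to 26 and 16.9 to 21.8 CPM at day 4, and 25.1 to 27.2 and 17.7 to 22.9 CPM at day 7. The ranges were apart at these days and met at day 21 (23.5 to 25.7 and 20.9 to 25.4 CPM).

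Set against the 9 cardiomyocyte markers, the members' sum overlapped between TAC and sham at each day. Per 1000 CPM of those markers it was 18.5 ± 0.874, 18.8 ± 1.4, 17.9 ± 0.737 and 18.1 ± 0.115 CPM (SD, n = 3) in sham at days 2, 4, 7 and 21, and 18.4 ± 0.929, 18.4 ± 1.12, 18 ± 0.889 and 19.3 ± 1.45 CPM in TAC. At day 21 sham lay between 18 and 18.2 CPM and TAC between 17.6 and 20.2 CPM. Of the markers themselves, 4 of 9 were lower at day 4 and 4 at day 7. Both quantities are shares of the same libraries, and this ratio does not say whether cells or RNA per cell changed.

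**Figure D5:**
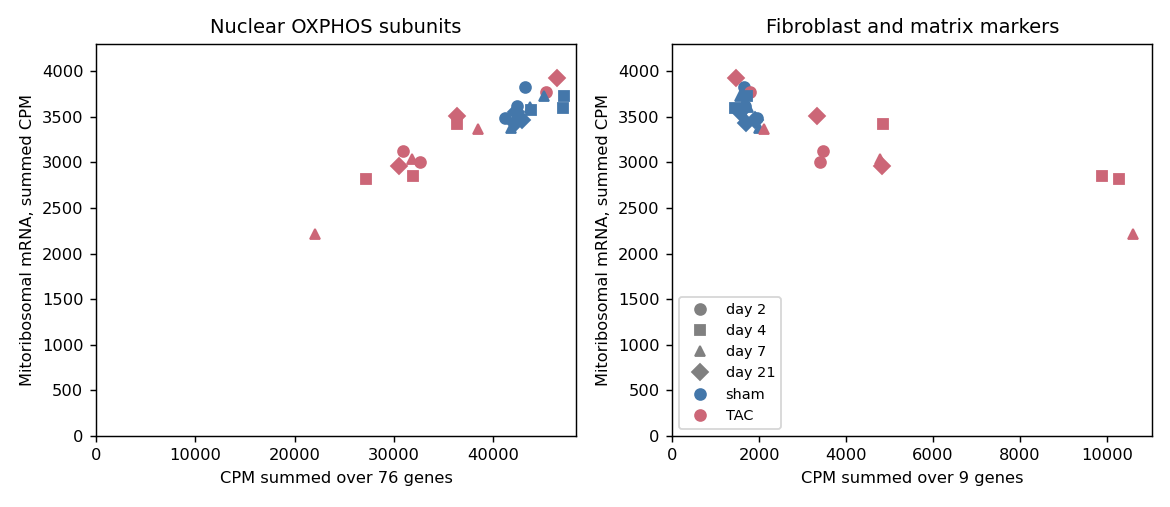
Summed CPM of the 77 mitoribosomal genes in each of the 24 libraries against summed CPM of nuclear oxidative phosphorylation subunits (left) and of 9 fibroblast and matrix markers (right). Colours give the operation and symbols the day. TAC day 7 replicate 1 is lowest on the vertical axis of both panels (2217 CPM), lowest in oxidative phosphorylation subunits (22061 CPM) and highest in matrix markers (10590 CPM).

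Known regulators of nuclear genes for mitochondria were measured last. Ppargc1a, the coactivator PGC-1alpha, stood at 369, 368 and 364 CPM in sham and 266, 279 and 178 CPM in TAC at day 4 (-0.61 ± 0.163, edgeR adjusted p = 0.0107), and at 335, 323 and 313 CPM against 165, 259 and 199 CPM at day 7 (-0.64 ± 0.163). The groups were apart at both days. Gabpa, the DNA-binding subunit of GABP, was lower at day 4 (-0.25 ± 0.089) and day 7 (-0.38 ± 0.0894), and its partner Gabpb1 lay at 0.36 ± 0.154 and 0.31 ± 0.155 without passing. The estrogen-related receptor gene Esrrg was lower at both days (-0.43 ± 0.126 and -0.37 ± 0.127) and Esrrb at day 4 (-0.61 ± 0.199), while Esrra lay at -0.35 ± 0.151 and -0.42 ± 0.152 without passing. Nrf1 lay at 0.12 at both days and Yy1 at -0.02 and -0.00248, both without passing. Myc, a driver of ribosome synthesis, was higher at day 2 (1.49 ± 0.343) and day 4 (1.28 ± 0.347), at 5.99, 4.72 and 5.66 CPM in sham and 6.52, 12.3 and 26.7 CPM in TAC of day 2. Max, Ppargc1b and Pprc1 passed at no single day, and Pprc1 passed on average (0.24 ± 0.0854). No regulator passed at day 21.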

How the data were processed

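RNA-seq was carried out on total RNA from frozen left ventricles, 3 libraries in each of 8 groups, with a NuGEN Ovation kit, per the labels' protocols. The authors deposited a table of read counts per gene (24015 genes) and a table of RPKM values (23951 genes). The submitters' processing notes name TopHat, DESeq and hg19. The labels and files name no mouse build or annotation for the counting, no gene lengths behind the deposited RPKM and no strand setting, so the coordinates printed are those of RefSeq's promoter windows alone, on RefSeq's own build.

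Counts were filtered with filterByExpr over the 8 groups, which left 13816 genes holding 99.96% of counts, scaled by TMM and fitted with 8 group means (16 residual degrees of freedom) by edgeR 4.0.16's quasi-likelihood test in R 4.3.3. P-values were Benjamini-Hochberg adjusted over all genes tested, with a threshold of 0.05. The script was tested on simulated counts. Alternatives were RLE scaling, no filter and a stricter filter, DESeq2 1.42.0, limma 3.58.1 (voom, and log2 of RPKM plus 0.1 or 1), a replicate block, libraries of the day only, each library left out, and, chosen after seeing the data, a set without 4 libraries with high Myl7.

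Genes described in full were, for each comparison, up to 6 higher and 6 lower members past the test with the smallest p, or the 2 with the smallest p where none passed. Mrpl12, Mrpl10, Mrps12, Mrpl45, Mrpl37, Mrps30, Mrps18a, Mrps18b, Mrps18c, Mrps36, Mrps6 and Mrpl41 were followed at every day, with the 3 highest and 3 lowest by sham RPKM. From other lists, up to 3 genes with the smallest p were taken, any gene against its list's direction, and all regulators. The members called lower at both day 4 and day 7 were given values at both days, a choice made after seeing the data. The members, lists and tests were chosen with earlier results of these data known. Mrpl47 and Mrpl55 were moved to the proteins with bacterial counterparts after values were seen. Promoters came from RefSeq (GRCm38.p6) and exon overlaps from GENCODE vM21. Figures were drawn with matplotlib 3.10.9 in Python 3.11.15.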

Additional observations from a re-analysis of the deposited data

Results flagged for a closer look

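In 3 members every TAC library lay on one side of the sham libraries at 1 day and on the other side at another. That is 3.9% of the 77, where 3.46% of all genes tested did the same. Mrpl13 differed by -0.282 at day 2 and 0.133 at day 21, with TAC at 19.6, 17.1 and 18.6 CPM against sham at 23.8, 21.9 and 21.4 CPM, and later at 22.1, 21.3 and 21 CPM against 20.5, 19.1 and 19.1 CPM. Annotated exons of Mrpl13 share 330 bases (27%) with Mtbp on the opposite strand. Mrpl43 differed by -0.195 at day 2 and 0.219 at day 21, and its annotated exons share 385 bases (27.5%) with Twnk on the opposite strand. Mrpl52 differed by 0.418 at day 2, 0.115 at day 4 and -0.176 at day 7. With edgeR, the test of the difference between day 2 and day 21 gave 0.41 (adjusted p = 0.421) for Mrpl43 and 0.41 (adjusted p = 0.565) for Mrpl13. For Mrpl52, day 4 against day 2 gave -0.30 (adjusted p = 0.548), day 7 against day 4 gave -0.29 (adjusted p = 0.64), and the test for any difference gave an adjusted p of 0.161. None passed.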

How the results depend on the processing

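The count of members lower at day 4 (11) stayed between 8 and 15 with RLE scaling, other filters on counts, DESeq2, voom, the replicate block and the libraries of the day only, and was 2 with RPKM plus 0.1 and no filter. The day 7 count (19) was 5 with the libraries of the day only, 8 with RPKM and no filter, and 0 in the set without 4 libraries with high Myl7, which leaves 1 sham library at day 2. In that set 25 members were lower on average, and 0 were higher at day 2 or on average. The single member higher on average (Mrpl52) gave 0 without a filter on counts, with voom, and with RPKM and no filter. The member higher at day 2 gave 0 with the libraries of the day only and with RPKM and no filter. With 1 library left out, members lower ranged from 0 to 1 at day 2, 0 to 24 at day 4, 0 to 41 at day 7 and 31 to 50 on average, and members higher from 0 to 1 at day 2 and 0 to 2 on average. The other counts of 0 stayed 0 in these fits. Of all genes, the share called lower ranged in the same fits from 0.0215% to 4.23% at day 2. It ranged from 2.45% to 12.1% at day 4, 2.75% to 13.6% at day 7 and 18.8% to 22.7% on average. No described member's call reversed. The cause of these changes was not tested. DESeq2 was not run for the tests over several days at once, and the libraries of 1 day give no average or difference between days.

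Same-numbered TAC and sham libraries of a day correlated between -0.151 and 0.141 in their deviations from group means, and differently numbered ones between -0.272 and 0.214. With 3 libraries per group, these values cannot decide whether the replicate numbers in the titles pair the samples. With the replicate block, 9 members were lower at day 4, 21 at day 7 and 39 on average. Of all genes, 9.1%, 8.79% and 20.6% were called lower at day 4, at day 7 and on average in that fit. In it, 0 members were higher at day 2 or on average.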
